A study of Homo sapiens with 6 samples.

Results

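The proteasome is the protease complex that degrades proteins tagged with ubiquitin. Its core particle is a barrel of alpha and beta rings, in which PSMB5, PSMB6 and PSMB7 carry the active sites, and a regulatory particle built from PSMC ATPases and PSMD subunits caps the barrel, binds ubiquitin chains and unfolds the substrate. In cells exposed to interferon, PSMB8, PSMB9 and PSMB10 take the place of the 3 catalytic subunits and form the immunoproteasome, and the PSME proteins can cap the core in place of the regulatory particle. Transcription of proteasome genes is known to be controlled by NFE2L1 (NRF1), which binds the antioxidant response element (ARE) and raises the subunits together when proteolysis is impaired, and NRF2 has been linked to some of the core subunits.

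The 49 genes described here were chosen by symbol alone, as the genes named PSMA, PSMB, PSMC, PSMD, PSME, PSMF or PSMG with a number and nothing after it, plus the assembly factor POMP, out of 61541 genes counted. They comprised 8 alpha ring genes, 4 non-catalytic and 3 catalytic beta subunits, 4 immunoproteasome and thymus beta subunits, 6 ATPases and 11 non-ATPases of the regulatory particle, 4 activators, the inhibitor PSMF1 and 8 assembly factors. Expression was measured by RNA-seq in luciferases-expressing HepG2 cells, a human hepatoblastoma line that carries on a mouse artificial chromosome vector a red luciferase driven by AREs and the TK promoter and a green luciferase driven by the TK promoter. Cells treated with 100 μM sedanolide, a phthalide from celery, for 24 h (3 libraries) were compared with control cells of the same reporter line (3 libraries). Sedanolide was dissolved in DMSO, and the sources used here do not say whether control wells received DMSO or whether the numbered replicates were separate cultures, so that p-values measure the spread between these libraries. All results come from this 1 reporter line.

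To check the cells and the treatment, marker genes were examined first. The 6 hepatocyte or hepatoblastoma markers were detected in every library, with a summed level of 17400 to 30000 CPM (counts scaled to a fixed library total) in control and 12800 to 23000 CPM in sedanolide libraries, with AFP the largest part. Their log2 fold changes were all below 0, opposite to most proteasome genes, with a median of −0.47. In CPM, ALB, APOA2 and TTR were lower in every sedanolide library than in every control (9.66% of all genes were). Within both sides of the split described next, 5 of the 6 were lower (20.5% of all genes were). None of the 6 passed an adjusted p of 0.05 with a 1.5-fold change by edgeR, and their part in the proteasome values was not tested. The 4 NRF2 reference genes NQO1, GCLM, TXNRD1 and SRXN1 were higher after sedanolide by 1.21 to 1.87 on the log2 scale, and edgeR's quasi-likelihood test gave them adjusted p-values from 0.00324 to 0.0172. Library totals ranged from 16420258 to 26714853 counts. The first principal component of log2 CPM over all genes held 56.1% of the variance and did not separate the treatments. It placed control 1, control 2 and sedanolide 3 at its positive end (called side A here) and control 3, sedanolide 1 and sedanolide 2 at its negative end (side B). No label names this split, and leaving the proteasome genes out of the component gave the same sides. Mitochondrially encoded genes held 1.43% to 2.15% of counts on side A and 4.23% to 5.22% on side B.

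Of the 49 genes, 47 had enough counts to be tested. PSMA8, the testis form of an alpha subunit, and PSMB11, the beta subunit of thymic epithelium, had at most 2 counts each over the 6 libraries together. The tested genes had between 36 and 16317 counts in a library. Compared per transcript length, as TPM (transcript abundance scaled to a fixed total) in control cells, the levels ranged from 5.117 for PSMB9 to 842.0 for PSMB5. Although each alpha subunit occupies the same number of places in the particle, the TPM levels of the 7 tested alpha ring genes ran from 94.9 (PSMA3) to 594.9 (PSMA6), a ratio of 6.27. The 6 ATPase genes, which also form a ring with equal places, lay closer together, from 80.82 (PSMC6) to 233.7 TPM (PSMC3). The 8 assembly factors had a median of 43.7 TPM, against 232.0 for the alpha ring and 351.0 for the catalytic subunits.

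To determine whether sedanolide altered these transcripts, the 3 treated libraries were compared with the 3 controls. Most proteasome genes were slightly higher after sedanolide, and none passed the threshold of an adjusted p of 0.05 with a 1.5-fold change. The log2 fold change was above 0 in 43 of 47 members (91.5%), against 50.7% of all genes tested, with a median of 0.31 (1.24-fold) against 0.01 over all genes. The number passing the threshold upward was 0 of 47 by edgeR, where 0.362% of all 14104 genes passed, and 0 of 47 by DESeq2, where 0.922% passed. Downward, 0 of 47 passed by edgeR, against 0.312% of all genes. At an unadjusted p under 0.05, 5 members were higher (10.6%), against 5.35% of all genes, and 0 were lower, against 6.57%. The 95% interval of the log2 fold change lay above 0 in these 5 members and included 0 in 42, and its upper bound exceeded 1.5-fold in 37, so that these libraries allow a change of that size for most members. The count of 5 depended on single libraries. It was 1 without control 1 (2.99% of all genes were then higher at that p), 3 without control 2 (3.53%), 18 without control 3 (7.05%), 3 without sedanolide 1 (3.09%), 1 without sedanolide 2 (2.47%) and 23 without sedanolide 3 (10.8%). The median log2 fold change was 0.50 without control 3, 0.16 without control 2 and 0.18 without sedanolide 1, and in the TPM table it was 0.16, where the median of all genes was −0.07.

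The level of these genes followed the sides. Added over the members, the normalised level was 6395 CPM in control 1, 5449.6 in control 2 and 8048.1 in control 3, and 9517.2 in sedanolide 1, 8734.3 in sedanolide 2 and 6444.3 in sedanolide 3. Control 3 thus exceeded sedanolide 3, and the groups overlapped. Control 3 was above both other controls in 41 of 47 members, and sedanolide 3 was the lowest sedanolide library in 44. The 3 side B libraries were all above the 3 side A libraries in 37 members (78.7%), against 23.1% of all genes tested, while the reverse order occurred in 0 members against 21% of all genes. Side B exceeded side A by a median of 0.51 on the log2 scale over the members and 0.02 over all genes, which is larger than the median difference between treatments. The mitochondrial share moved with the side as well, and its part in these levels was not tested. Nor can a different mix of cells be told apart from a different amount of RNA per cell in bulk libraries.

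**Figure D1:**
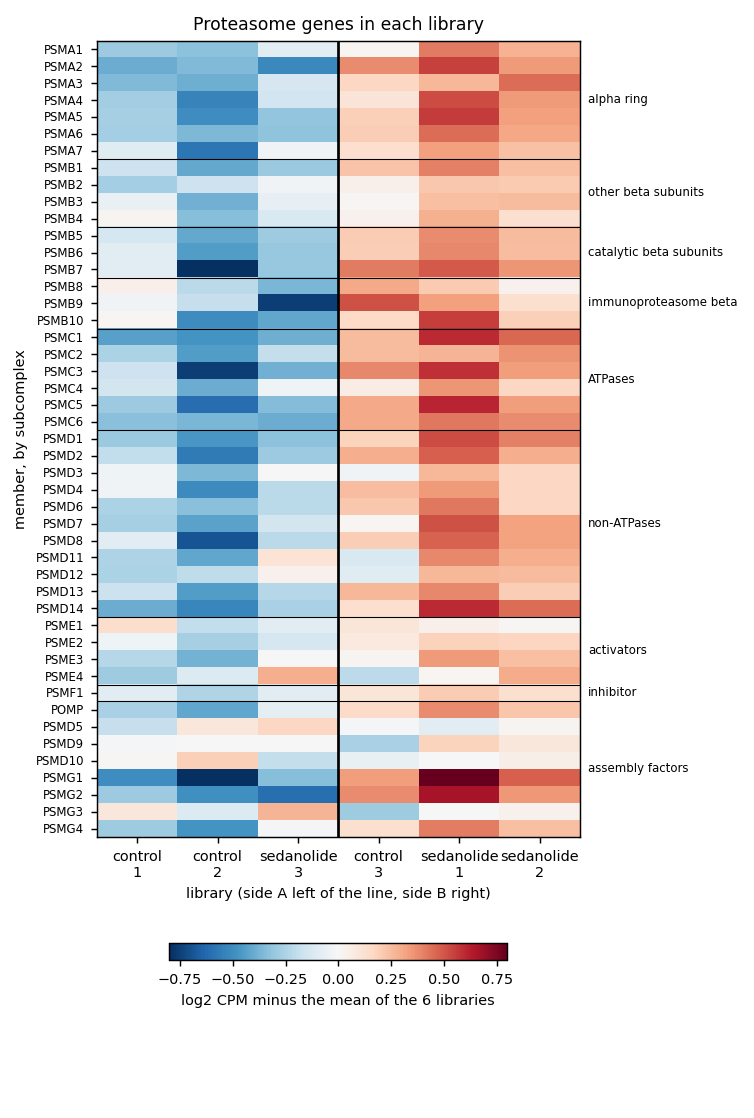
Log2 CPM of each tested proteasome gene minus its mean over the 6 libraries, with genes in rows by subcomplex and libraries in columns, side A left of the heavy line and side B right of it; blue is below and red above the gene's mean. In 37 of 47 rows the 3 side B libraries are all above the 3 side A libraries.

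The treatment difference was smaller within the sides. Within side A, sedanolide 3 exceeded the mean of controls 1 and 2 by a median of 0.09 (log2), and within side B sedanolide 1 and 2 exceeded control 3 by a median of 0.17. The difference was above 0 in both sides for 34 members (72.3%), against 36.6% of all genes. With no overlap in either side, 20 members were higher after sedanolide (42.6%), against 20.9% of all genes, and 2 were lower (4.26%), against 20.5%. The 20 consisted of 4 alpha ring genes, PSMB2 among the non-catalytic beta subunits, 3 ATPases, 5 non-ATPases, 2 activators and 5 assembly factors, and held no catalytic subunit. The 2 lower genes were PSMB8 and PSMB9. When the side was added to the edgeR model, the median log2 fold change of the members was 0.14, against 0.01 over all genes, and 41 of 47 were above 0. In that model 0 members passed the adjusted p together with the 1.5-fold change, against 1.07% of all genes upward and 1.63% downward. At an unadjusted p under 0.05, 12 were higher (25.5%), against 9.44% of all genes, and PSMB9 was lower, against 10.1%. PSMD11 passed the adjusted p without the fold requirement, as 1.75% of all genes did upward, and 0 members did so downward, against 2.35% of all genes. Because the sides were drawn from the same libraries, the p-values of this model are not independent of the data that defined it.

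**Figure D2:**
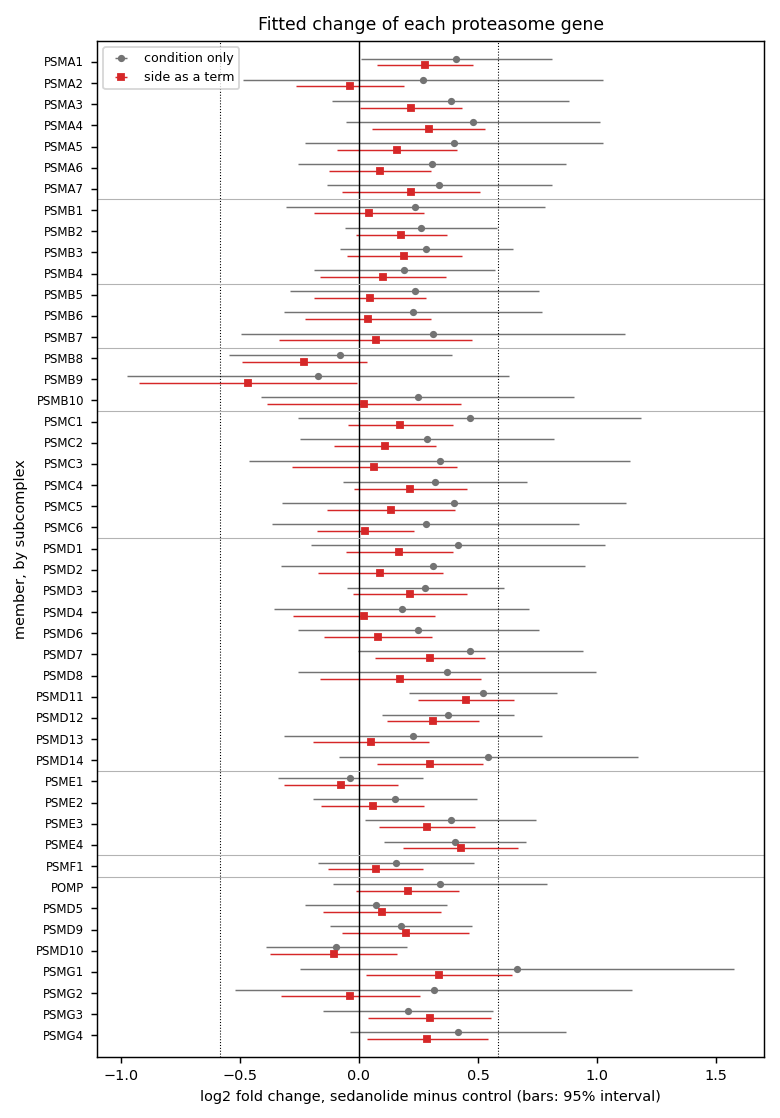
Log2 fold change of each tested proteasome gene, sedanolide minus control, from the edgeR model with condition alone (grey circles) and with side as a further term (red squares), with 95% intervals as bars and 1.5-fold marked by dotted lines. The intervals of 42 genes include 0 without the side term, and the median moves from 0.31 (circles) to 0.14 (squares).

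The clearest single member was PSMD11 (Rpn6), a lid subunit that holds the regulatory particle to the core, encoded on chromosome 17 (GRCh38, chr17:32444379-32483319). Its level was 207.3, 184.5 and 225.6 CPM in controls 1 to 3 and 321.2, 300.4 and 265.2 CPM in sedanolide 1 to 3. In CPM every sedanolide library exceeded every control, including sedanolide 3 of side A over control 3 of side B. In the deposited TPM the groups overlapped, with 178.9, 140.6 and 213.3 in the controls and 266.3, 256.5 and 199.4 after sedanolide, and limma on log2(TPM + 1) gave a log2 fold change of 0.45 with an adjusted p of 0.452. The fitted change was 0.52 ± 0.13 (log2, SE; 1.44-fold), with an edgeR adjusted p of 0.182. With the side term it was 0.45 (1.37-fold) with an edgeR adjusted p of 0.0282, and DESeq2 without that term gave an adjusted p of 0.00987. No other member had an adjusted p under 0.05 in either fit (by DESeq2 1.31% of all genes were higher at that adjusted p and 1.76% lower, the latter with 0 members). The fold stayed under 1.5 in each of these fits.

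The groups did not overlap in 5 members, all higher after sedanolide (10.6%), against 8.69% of all genes, and no member was lower without overlap, against 9.66%. These counts are in CPM, and the 5 were PSMD11, PSMD12, PSMD3, PSME4 and PSMD9. In TPM the groups of PSMD12 and PSMD3 did not overlap, and those of PSMD11, PSME4 and PSMD9 did. PSMD12 (Rpn5), another lid subunit, was at 91.9, 95 and 102.2 CPM in the controls and 131.7, 130.8 and 112.3 CPM after sedanolide, a change of 0.37 ± 0.12 (log2, SE; edgeR adjusted p = 0.278). Its controls lay close together, and sedanolide 3 was again the lowest treated library. The lid subunit PSMD3 (Rpn3) had 262.5, 209.8 and 263.7 CPM in the controls and 323.4, 301.2 and 268.2 CPM after sedanolide. The gap between control 3 and sedanolide 3 was small here, and the change of 0.28 had an edgeR adjusted p of 0.489. PSMD9, a chaperone of base assembly, was at 23.38, 23.59 and 19.67 CPM in the controls and 26.61, 25.1 and 23.63 CPM after sedanolide. Sedanolide 3 exceeded control 2 by less than 1 CPM, so that the separation of the groups was slight.

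Since the NFE2L1 and NRF2 proteins bind the ARE, the promoters of the members were searched for its core, TGACNNNGC, on both strands from 250 bases before to 50 after the RefSeq start (GRCh38.p14), where 43 of the 49 members had 52 promoters. The core was present in 15 of the 52 (28.8%), against 13.3% of 35116 promoters of the same length. These letters also fit part of some AP-1 and MAF motifs, and a match is no evidence of binding. Of the 43 members with a promoter, 15 held a match. The 5 members without overlap in CPM were 10.6% of the members, against 8.69% of all genes. Of these, PSMD12, PSMD3, PSMD9 and PSME4 held a match and PSMD11 did not, and a link between match and change was not tested. PSMD1, PSMB3, PSMC4 and PSMC5 held a match as well, and their groups overlapped. Matches also lay in members with a change near or below 0, namely PSMB9, PSME1, PSMD5 and PSME2, and in PSMG2, whose change was below 0 with the side term. Both upstream stretches of lid subunit genes are shown whole, from 250 to 29 bases before the start, with the match in capitals. Short windows show the matches in PSMD9, PSME4 and in PSMA4 and PSMG1, which had the largest fitted changes of the alpha ring and of all members. PSMD3 held a further match, not shown, 34 bases after its start on the other strand. Where the match lies on the other strand, the capitals read as its reverse complement.
PSMD12 (chr17:67366606-67366827, minus strand): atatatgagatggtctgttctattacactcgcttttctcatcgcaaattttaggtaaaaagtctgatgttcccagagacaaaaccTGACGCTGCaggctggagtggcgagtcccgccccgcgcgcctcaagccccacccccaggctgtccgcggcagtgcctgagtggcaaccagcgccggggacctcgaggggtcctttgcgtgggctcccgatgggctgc
PSMD3 (chr17:39980557-39980778, plus strand): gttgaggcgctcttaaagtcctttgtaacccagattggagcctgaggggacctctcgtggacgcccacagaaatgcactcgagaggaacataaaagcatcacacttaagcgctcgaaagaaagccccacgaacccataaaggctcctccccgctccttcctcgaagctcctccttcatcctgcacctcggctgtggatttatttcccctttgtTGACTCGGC
PSMD9, distal match (chr12:121888631-121888659, plus strand): cgctactcctGCCGGGTCAccacaggcgc
PSMD9, proximal match (chr12:121888678-121888706, plus strand): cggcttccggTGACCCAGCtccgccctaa
PSME4 (chr2:53971009-53971037, minus strand): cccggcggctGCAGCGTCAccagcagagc
PSMA4 (chr15:78540650-78540678, plus strand): gtgggcacgaTGACTCTGCaccgcctcct
PSMG1 (chr21:39183616-39183644, minus strand): gcccagggcaTGACAGCGCgggcgggcgg

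**Figure D3:**
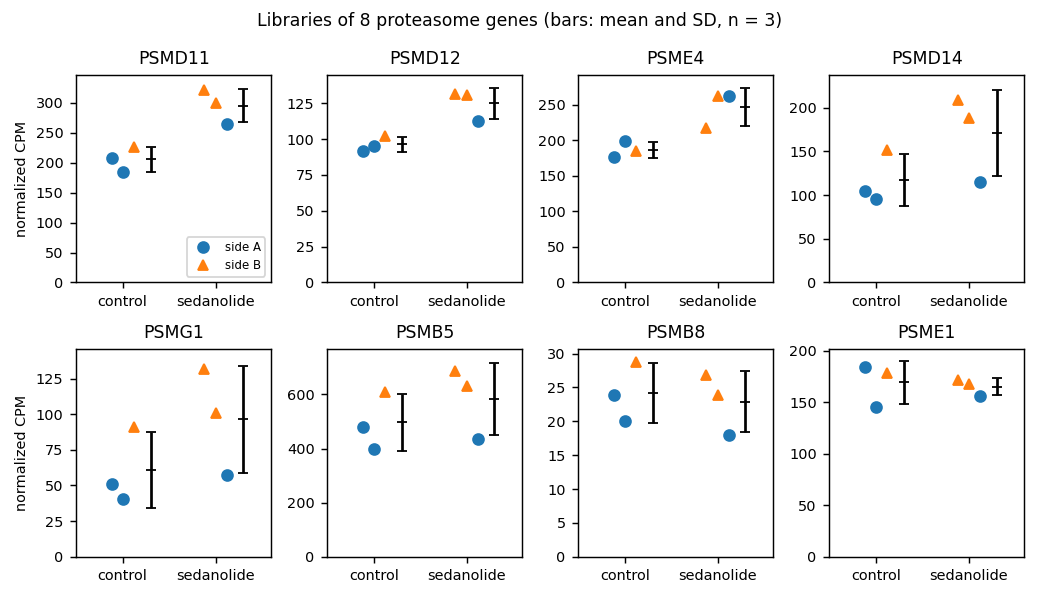
Normalised CPM of 8 proteasome genes in each library, circles for side A and triangles for side B, with the mean and SD of each group (n = 3) at its right. In PSMD11, PSMD12 and PSME4 the groups do not overlap in CPM, whereas in PSMD14, PSMG1 and PSMB5 the side A sedanolide library falls among the controls.

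All 7 tested alpha ring genes had a log2 fold change above 0, with a median of 0.39. This ring gates entry to the core. PSMA1 was at 145.9, 142.2 and 180.5 CPM in the controls and 237.6, 216.0 and 168.2 CPM after sedanolide, a change of 0.41 ± 0.17 (log2, SE; unadjusted p = 0.0468, edgeR adjusted p = 0.407). Sedanolide 3 lay below control 3, so the groups overlapped, while within each side the treated libraries were higher. The largest change of the ring was that of PSMA4, 0.48, with 102.6, 86.19 and 133.7 CPM in the controls and 178.9, 158.1 and 112.3 CPM after sedanolide. The smallest was that of PSMA2, 0.27, with 100.7, 103.9 and 172.8 CPM in the controls and 194.0, 167.8 and 92.77 CPM after sedanolide. PSMA2 followed the sides more than the treatment, since its lowest library was sedanolide 3, and with the side term its change was −0.04.

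The non-catalytic beta subunits, which complete the inner rings, had a median change of 0.25. PSMB3 had the largest, 0.28, with 161.6, 128.9 and 169.3 CPM in the controls and 198.6, 200.3 and 160.6 CPM after sedanolide. PSMB4 had the smallest, 0.19, with 202.3, 157.3 and 204.2 CPM in the controls and 243.1, 217.5 and 183.1 CPM after sedanolide. In both genes sedanolide 3 fell below 2 of the controls.

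The catalytic subunits showed a smaller change still once the sides were taken into account. PSMB5, which carries the chymotrypsin-like site, was at 480.7, 398.8 and 610.2 CPM in the controls and 686.2, 630.2 and 434.8 CPM after sedanolide. PSMB6, with the caspase-like site, was at 151.5, 118.3 and 184.9 CPM in the controls and 210.4, 191.3 and 130.7 CPM after sedanolide. PSMB7, with the trypsin-like site, was at 179.9, 104.0 and 254.0 CPM in the controls and 268.5, 244.3 and 154.7 CPM after sedanolide. In each of the 3 genes sedanolide 3 lay between control 2 and control 1, and control 3 was close to the treated libraries of its side. Their log2 fold changes of 0.23, 0.23 and 0.31 became 0.05, 0.04 and 0.07 with the side term, where the 95% interval of PSMB5 ran from −0.19 to 0.28.

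Of the immunoproteasome subunits, PSMB8 and PSMB9 had log2 fold changes below 0, whereas that of PSMB10 was like those of the catalytic subunits. PSMB8, the counterpart of PSMB5, was at 23.87, 19.99 and 28.71 CPM in the controls and 26.88, 23.83 and 18.0 CPM after sedanolide, a change of −0.08 ± 0.20 (log2, SE). PSMB9, the counterpart of PSMB6, was the member with the lowest level, at 2.423, 2.16 and 3.561 CPM in the controls and 3.118, 2.703 and 1.427 CPM after sedanolide, a change of −0.17 ± 0.34. In both genes control 3 was the highest library and sedanolide 3 the lowest, and within each side the treated libraries were lower than the controls. The signs of these changes were not stable, since leaving out control 3 gave 0.07 for each gene and leaving out sedanolide 3 gave 0.07 for PSMB8 and 0.10 for PSMB9. PSMB10, the counterpart of PSMB7, was at 16.6, 11.56 and 18.37 CPM in the controls and 24.14, 18.77 and 12.29 CPM after sedanolide. Its log2 fold change was 0.25 ± 0.28, and 0.02 with the side term, and it was lower after sedanolide within side A and higher within side B. PSMB8 and PSMB9 overlap head to head on chromosome 6 and share 139 exon bases on opposite strands. PSMB8 had 926% of the counts of PSMB9, and since the sources used here do not state whether counting used the strand, a part of the PSMB9 counts may belong to PSMB8. PSMB10 shares 640 exon bases on the same strand with the annotated gene ENSG00000261884, whose counts were 14.2% of its own. This overlap limits the level of PSMB10 and its share below.

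Because each immunoproteasome subunit replaces a catalytic one, its share of the pair was computed within each library from TPM, a ratio in which a factor common to both genes cancels. PSMB8 made up 4.12%, 4.1% and 3.89% of PSMB8 plus PSMB5 in the controls and 3.27%, 3.08% and 3.39% after sedanolide. The groups did not overlap, and the mean was 4.04% ± 0.128 in the controls and 3.25% ± 0.159 after sedanolide (SD, n = 3; exact two-sided permutation test, p = 0.1, the smallest that 3 against 3 libraries can give, and 0.15 adjusted over the 3 pairs). PSMB9 made up 1.19%, 1.48% and 1.62% of PSMB9 plus PSMB6 in the controls and 1.1%, 1.17% and 1.09% after sedanolide. Here too the groups did not overlap (exact two-sided permutation test, n = 3 per group, p = 0.1, adjusted 0.15), although the lowest control lay close to the highest treated library. PSMB10 made up 13.4%, 16% and 11.1% of PSMB10 plus PSMB7 in the controls and 13.2%, 11.8% and 11.7% after sedanolide, and its groups overlapped (exact two-sided permutation test, n = 3 per group, p = 0.6). None of the 3 tests could reach 0.05. At transcript level, PSMB8 and PSMB9 were minor members of their pairs in every library.

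**Figure D4:**
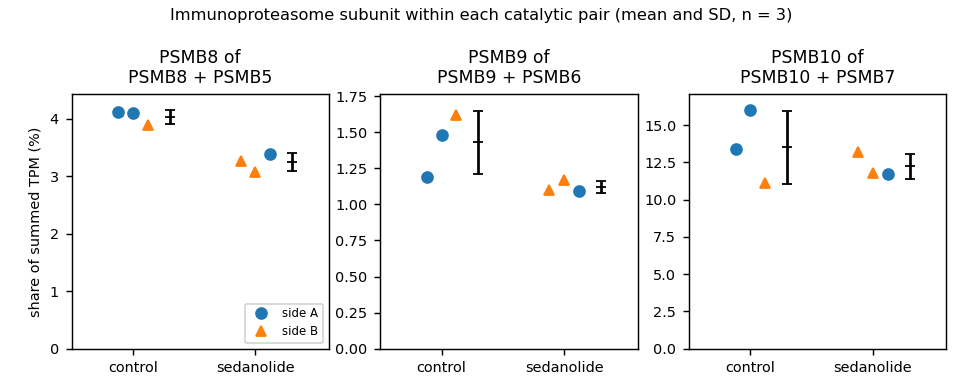
Share of each immunoproteasome subunit in the summed TPM of its catalytic pair, in percent, for each library (circles side A, triangles side B) with the mean and SD of each group (n = 3). The PSMB8 and PSMB9 shares of the 3 sedanolide libraries lie below those of the 3 controls, and the PSMB10 shares overlap.

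The activators differed among themselves. PSME1 and PSME2, which form the interferon-inducible cap of the immunoproteasome and are neighbours on chromosome 14 (4394 bases apart), had the values nearest to 0 of the 4. PSME1 was at 183.7, 145.6 and 178.4 CPM in the controls and 171.4, 167.6 and 156.2 CPM after sedanolide, a log2 fold change of −0.04 with a 95% interval of −0.34 to 0.27, and its sign turned when control 1, control 3 or sedanolide 3 was left out. PSME2 was at 150.1, 128.2 and 162.2 CPM in the controls and 175.1, 173.3 and 140.4 CPM after sedanolide, a log2 fold change of 0.15 with a 95% interval of −0.19 to 0.49. For both genes the groups overlapped. PSME3, the nuclear activator, was at 205.2, 184.5 and 244.2 CPM in the controls and 304.5, 283.6 and 240.3 CPM after sedanolide, a change of 0.39 ± 0.15 (unadjusted p = 0.0384, edgeR adjusted p = 0.380). PSME4, a large nuclear cap linked to histone degradation, was at 175.9, 198.9 and 185.7 CPM in the controls and 216.8, 263.1 and 262.1 CPM after sedanolide, a change of 0.40 ± 0.13 (unadjusted p = 0.0146, edgeR adjusted p = 0.273). PSME4 did not follow the sides, since sedanolide 3 was as high as sedanolide 2, and its change with the side term was 0.43 (edgeR adjusted p = 0.0614). In TPM, however, its groups overlapped, with 44.95, 49.24 and 44.13 in the controls and 44.42, 52.49 and 62.56 after sedanolide, and the log2 fold change was 0.19. The inhibitor PSMF1 was at 157.4, 141.6 and 178.9 CPM in the controls and 192.4, 183.1 and 157.2 CPM after sedanolide, with a change of 0.16 and overlapping groups.

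After these values had been seen, the 5 members known to be induced by interferon (PSMB8, PSMB9, PSMB10, PSME1 and PSME2) were set beside the other 42 tested members. Their median log2 fold change was −0.04 against 0.31, and 0 of the 5 against 20 of the 42 were higher within both sides without overlap, against 20.9% of all genes, a share at which a count of 0 among 5 genes says little. This is a description of a grouping formed from the values, with no test. An interferon-stimulated response element was searched for on both strands as 2 GAAA repeats with any 2 bases between them, which was present in 13.5% of the member promoters and 3.57% of all promoters. It occurred in PSMB8, PSMB10, PSME1 and PSME2, whose windows are shown with the match in capitals, and outside this set in PSMB4, PSMG4 and PSMA4.
PSMB8 (chr6:32844032-32844061, minus strand): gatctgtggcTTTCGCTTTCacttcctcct
PSMB10 (chr16:67936852-67936881, minus strand): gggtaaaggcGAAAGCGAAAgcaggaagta
PSME1 (chr14:24136189-24136218, plus strand): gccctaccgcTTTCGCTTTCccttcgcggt
PSME2 (chr14:24146619-24146648, minus strand): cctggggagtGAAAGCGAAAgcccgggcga

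Among other genes of interferon signalling and MHC class I antigen presentation, 2 of 11 had a log2 fold change above 0, against 50.7% of all genes. The median of the 11 was −0.25, and −0.08 with the side term. None passed the threshold by edgeR with condition alone. NLRC5 is the transactivator of MHC class I genes. Its level was 4.725, 3.388 and 3.956 CPM in the controls and 1.559, 2.008 and 2.141 CPM after sedanolide. The change was −1.07 ± 0.21 (log2, SE; edgeR adjusted p = 0.106). With the side term it was −1.02 (0.494-fold, edgeR adjusted p = 0.0346), and DESeq2 without that term gave an adjusted p of 0.0104. Both of these fits pass the threshold. NLRC5 had only 29 to 80 counts in a library and has no value in the deposited TPM. IRF1 is a transcription factor that activates immunoproteasome genes. It was at 8.057, 7.2 and 8.421 CPM in the controls and 6.129, 4.287 and 4.361 CPM after sedanolide. The change was −0.68 ± 0.19 (edgeR adjusted p = 0.210, and 0.0639 by DESeq2). With the side term it was −0.75 (0.593-fold, edgeR adjusted p = 0.0432), which passes the threshold, as 1.63% of all genes did downward in that model. In CPM every treated library of NLRC5 and IRF1 was below every control. In CPM, 3 of the 11 genes were lower without overlap, against 9.66% of all genes, and 1 was higher, against 8.69%. TAP2, a peptide transporter subunit encoded near PSMB8, had the opposite direction, a change of 0.33 (unadjusted p = 0.0142, edgeR adjusted p = 0.271). In TPM its groups overlapped, with 28.9, 26.01 and 33.39 in the controls and 34.24, 25.96 and 33.21 after sedanolide. Blood cells carry immunoproteasomes, and of their markers CD3E had 0 counts in every library, TYROBP at most 2 and PTPRC at most 3, while CD14 had 36 to 78 counts. LYZ was at 1070, 1319 and 804.1 CPM in the controls and 466.7, 548.6 and 755.5 CPM after sedanolide. In CPM every treated library of LYZ was below every control, whereas in TPM sedanolide 3 (848.1) was above control 3 (842.3). The part of LYZ in the immunoproteasome values was not tested.

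The 6 ATPases, which unfold substrates, all had changes above 0 with a median of 0.33. PSMC1 had the largest, 0.46 ± 0.30, with 54.89, 53.2 and 88.45 CPM in the controls and 112.5, 102.1 and 56.61 CPM after sedanolide. PSMC6 had the smallest, 0.28 ± 0.27, with 54.46, 53.37 and 84.83 CPM in the controls and 92.15, 89.64 and 52.21 CPM after sedanolide. In PSMC1 and PSMC6 sedanolide 3 was close to controls 1 and 2 and far below the other treated libraries. Side B exceeded side A by a median of 0.76 over the ATPases, the highest median of the subcomplexes, and the median treatment difference with the side term was 0.12. The interval of PSMC6 with that term, −0.18 to 0.23, left out a change of 1.5-fold in either direction.

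The 11 non-ATPases also all had changes above 0, with a median of 0.37. Of the 5 members without overlap in CPM (10.6%, against 8.69% of all genes), 3 came from this group. PSMD11, 1 of these 3, overlapped in TPM. PSMD14 (Rpn11), the deubiquitinase that removes ubiquitin chains from substrates, had the largest change of the regulatory particle, 0.54 ± 0.27, with 104.7, 96.02 and 151.2 CPM in the controls and 209.0, 188.4 and 115.4 CPM after sedanolide. Sedanolide 3 lay below control 3, and with the side term the change was 0.30 with a 95% interval of 0.08 to 0.52. PSMD4 (Rpn10), a ubiquitin receptor, had the smallest, 0.18 ± 0.23, with 163.9, 117.4 and 198.5 CPM in the controls and 211.6, 187.6 and 144.0 CPM after sedanolide. The fitted change of PSMD4 was near 0 with the side term (0.02) and without control 2 (−0.002).

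**Figure D5:**
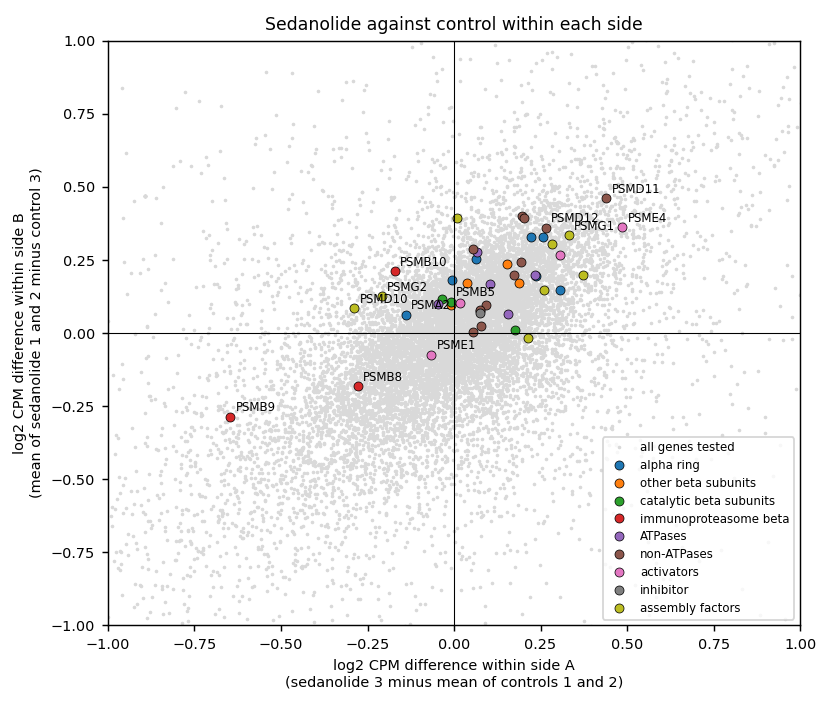
Log2 CPM difference between sedanolide and control within side A (x axis, sedanolide 3 minus the mean of controls 1 and 2) and within side B (y axis, mean of sedanolide 1 and 2 minus control 3), with all tested genes in grey and proteasome genes coloured by subcomplex; points beyond 1 on either axis are not drawn. Of the 47 proteasome genes, 34 lie in the upper right quadrant, and PSMB8, PSMB9 and PSME1 lie in the lower left.

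The assembly factors help to build the core ring by ring or to assemble the base. With condition alone they spread more widely than the other groups, from −0.09 (PSMD10) to 0.66 (PSMG1). With the side term they ran from −0.11 to 0.34, the activators from −0.07 to 0.43 and the immunoproteasome subunits from −0.46 to 0.02. The wider spread thus did not hold in that model. PSMG1, a chaperone of alpha ring assembly, had the largest fitted change of all members, 0.66 ± 0.39 (1.58-fold; edgeR adjusted p = 0.553), which ran from 0.37 without sedanolide 1 to 1.08 without control 3 as single libraries were left out. Its level was 51.01, 40.28 and 91.22 CPM in the controls and 131.7, 100.5 and 57.05 CPM after sedanolide. Sedanolide 3 was well below control 3, side B exceeded side A by 1.01, and with the side term the change was 0.34. Its partner PSMG2 was at 60.52, 52.61 and 96.25 CPM in the controls and 117.0, 94.42 and 48.8 CPM after sedanolide. PSMG2 had a change of 0.31 that became −0.04 with the side term. Within sides A and B, PSMG1 was higher after sedanolide by 0.33 and 0.34 (log2) and PSMG2 differed by −0.21 and 0.13, and the difference between the partners was not tested.

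PSMG3 and PSMG4 form the second chaperone pair of the alpha ring and had 21.04 and 48.97 TPM in control cells, less than the 125.4 TPM of PSMG1. PSMG3 was at 13.03, 11.31 and 10.0 CPM in the controls and 12.26, 12.51 and 14.79 CPM after sedanolide, a change of 0.21 ± 0.15, and with the side term of 0.30. Unlike most members, PSMG3 was highest in sedanolide 3. PSMG4 was at 18.6, 16.26 and 24.75 CPM in the controls and 30.11, 26.8 and 22.56 CPM after sedanolide, a change of 0.42 ± 0.19. It shares 1388 exon bases on the opposite strand with SLC22A23, whose counts were 301% of its own, which limits its value if counting did not use the strand. POMP, which is needed for the joining of half-built cores, was at 76.39, 68.57 and 101.6 CPM in the controls and 119.0, 106.5 and 86.71 CPM after sedanolide, a change of 0.34 ± 0.19. Of the 3 base chaperones among the members, PSMD9 had a change of 0.18, PSMD5 of 0.07 and PSMD10 (gankyrin) of −0.09.

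Proteins that bind the proteasome or complete it were examined as a list of 16 genes. Of these, 14 had a log2 fold change above 0, with a median of 0.23, against 50.7% of all genes above 0. Within both sides without overlap 9 were higher (20.9% of all genes) and 1 lower (20.5%), while 0 passed the threshold by edgeR (0.362% of all genes upward). Those at an unadjusted p under 0.05 were 3, all higher (5.35% of all genes). The ubiquitin receptor ADRM1 was at 137.9, 101.5 and 152.0 CPM in the controls and 208.2, 180.4 and 156.1 CPM after sedanolide (log2 fold change 0.48, edgeR adjusted p = 0.379). UCHL5, the deubiquitinase that ADRM1 recruits, was at 49.13, 45.57 and 56.74 CPM in the controls and 77.31, 69.9 and 60.82 CPM after sedanolide (0.46, edgeR adjusted p = 0.268). USP14, the other deubiquitinase that docks on the particle, was at 144.6, 157.9 and 158.4 CPM in the controls and 196.9, 191.5 and 169.0 CPM after sedanolide (0.27, edgeR adjusted p = 0.418). In CPM every treated library of all 3 genes exceeded every control, as in PSMD11. Of the 16 genes, 6 were higher without overlap in CPM, against 8.69% of all genes, and 0 were lower, against 9.66%. In TPM the groups of ADRM1 and UCHL5 did not overlap. Those of USP14 did, with 68.67, 82.85 and 72.92 TPM in the controls and 79.86, 80.5 and 86.27 TPM after sedanolide. Of the 11 factors that control proteasome genes or the processing of NFE2L1, 5 had a change above 0 (50.7% of all genes). The median was −0.03, and the changes ran from −0.70 (SEL1L) to 0.43 (NGLY1). Within both sides without overlap 3 were higher (20.9% of all genes) and 3 lower (20.5%). NFE2L1 itself was at 311.7, 332.6 and 205.4 CPM in the controls and 157.7, 184.1 and 309.0 CPM after sedanolide. Its libraries were low on side B, where the proteasome genes were high, and its change of −0.38 ± 0.29 had an edgeR adjusted p of 0.650. NFE2L2, which encodes NRF2, had a log2 fold change of −0.09 ± 0.15. The ubiquitin ligase SYVN1, which acts on NFE2L1, was the 1 gene of this list at an unadjusted p under 0.05. Its log2 fold change was −0.43 (edgeR adjusted p = 0.364), and 6.57% of all genes were lower at an unadjusted p under 0.05.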

How the data were processed

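Poly(A) RNA was sequenced as directional paired-end libraries, and per the study's methods the authors ran FastQC, Trimmomatic, STAR (GRCh38) and RSEM; versions and annotation are not given in the sources used here. The authors deposited RSEM expected counts for 61541 genes and a table of log2(TPM + 1) values for 11006 genes. Expected counts were rounded to whole numbers, filtered with filterByExpr, scaled by TMM and tested with edgeR 4.0.16 (quasi-likelihood, robust; R 4.3.3), Benjamini-Hochberg adjusted over 14104 genes, called at an adjusted p of 0.05 and 1.5-fold, the limits of the study's methods. SE and 95% intervals come from the same fit. Genes were named from the reference tables (61369 of 61541), and coordinates are those of GENCODE on GRCh38. TPM was taken back from the log2 values deposited by the authors for levels and shares. Alternatives were DESeq2 1.42.0, limma 3.58.1 on the log2 table with a pseudocount of 1 or 0.1, other scalings and filters, left-out libraries, a replicate block and a term for the side of component 1. The symbol rule for the members and the lists were set with earlier results of these data known, although the rule itself used no values. The members described with values in every library were, by rule, the catalytic and immunoproteasome subunits, activators, inhibitor, PSMG genes and POMP, the members with the highest and lowest change of each other subcomplex, and members at an unadjusted p under 0.05; PSMD3 and PSMD9 were added after their values were seen. The edgeR step was tested on simulated data. Replicates of a group differed by more than sampling noise (chi-square per degree of freedom 19.2 to 137), and the spread between libraries corresponded to a biological coefficient of variation of 0.199, so that it and not counting limits most values. PSM pseudogenes (45 in the table) had at most 3.57% of the counts of their parent gene. Promoter sequences are from RefSeq (GRCh38.p14); those of PSMA7, PSMB1, PSMB6, PSMB7, PSMD4 and PSMG3 were not used here. Some genes of the lists examined are not reported here.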

Additional observations from a re-analysis of the deposited data

How the results depend on the processing

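No member passed the threshold in any of the alternative fits, upward or downward. The number of members at an unadjusted p under 0.05 was 5, and 9 among all genes with at least 1 count, 13 in the model that included the side, 1 with limma on log2(TPM + 1) and 1 on log2(TPM + 0.1); leaving out 1 library gave 1 to 23. The median log2 fold change of the members was 0.306, 0.135 with the side term, 0.163 to 0.499 with 1 library left out, and 0.163 with limma on log2(TPM + 1) and 0.164 on log2(TPM + 0.1); the cause was not tested. The sign turned in 10 of the refitted values of named members and was kept in 422. With 1 library left out, it turned for PSMB8 without control 3 (0.065) and sedanolide 3 (range −0.211 to 0.069), PSMB9 without control 3 (0.073) and sedanolide 3 (−0.39 to 0.104), PSME1 without control 1 (0.016), control 3 (0.006) and sedanolide 3 (0.003; lowest −0.134), and PSMD4 without control 2 (−0.002 to 0.366). It also turned for PSMG2 (−0.036) and PSMA2 (−0.037) with the side term. Control and sedanolide libraries of the same replicate number had negative correlations of deviations (−0.133, −0.295 and −0.73 for numbers 1 to 3). Each such pair joined a side A and a side B library, whereas pairs within a side had correlations of 0.17 to 0.679. These values therefore cannot tell whether the replicates were paired. With a replicate block 1 member was at an unadjusted p under 0.05 and 0 passed the threshold, as did 0 of all genes. Scalings chosen after seeing the data put 18 members (library size alone, 17.4% of all genes), 20 (TPM, 15%) or 22 (median of ratios, 22%) higher within both sides, and 2 lower in each. The median of all genes moved to −0.04 with library size alone and −0.07 in the TPM table.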

Other observations

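A few members did not follow the split between libraries. The coefficient for side B over side A was below 0 in PSME4 (−0.07), PSMD5 (−0.09), PSMD9 (−0.06) and PSMG3 (−0.27), against a median of 0.51 over the 47 members tested, and near 0 in PSMD10 (0.03). Of these, PSMD5, PSMD9 and PSMD10 are the base chaperones among the members. Their genes did not share the side difference that the ATPase genes showed most. This was noticed in the values and has no test. The coefficient of PAAF1, a further base chaperone from the list of proteasome-bound proteins, was 0.53, near the median of the members. The pattern thus does not extend to every base chaperone. The base chaperone PSMD5 was at 55.37, 67.22 and 62.51 CPM in the controls and 59.57, 63.99 and 70.85 CPM after sedanolide, and PSMD10 was at 31.32, 35.41 and 29.78 CPM in the controls and 31.13, 32.09 and 27.24 CPM after sedanolide, with overlapping groups in both.

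The CCAAT box, the letters bound by NF-Y, was present in 38.5% of the 52 member promoters and 34.6% of all promoters, a smaller difference than for the ARE core.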
